A study of Mus musculus with 12 samples.

Results

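The miRNAs described here are mmu-miR-7a-5p, mmu-miR-7b-5p, mmu-miR-671-5p and mmu-miR-671-3p, which are the guide strands of the miR-7 family and both arms of the miR-671 hairpin, named together for their link to the circular RNA Cdr1as. They were picked by name from the rows of mature miRNAs, with no threshold on their values, and make up 4 of 1374 mature miRNAs listed in any library. Because the list of names was drawn up with results of these same libraries known, the values of the 4 miRNAs are given as a description, with no p-value. They were part of the fit over all miRNAs, and the calls made there are given only beside the share of all miRNAs called, with nothing read from them.

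Small RNA of 18 to 30 nt was sequenced from the medial PFC of adult male C57BL/6 mice, in 12 libraries of RNA pooled from 2 animals each. The 4 groups had 3 libraries each. SS mice received saline with saline, CS mice cocaine with saline, MS mice L-methionine (MET) with saline, and MC mice MET with cocaine. MET was given subcutaneously at 1 g/kg (6.6 mmol/kg) in 2 injections a day for 10 days, and all animals, SS included, went through the conditioned place preference (CPP) procedure and were killed 2 h after the test of day 10. Libraries are named here by group and the number in their label, so that SS12 is the SS library numbered 12. Nothing in the labels ties a number to more than 1 library, and the spread between libraries is the only error available.

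miR-7 is a deeply conserved miRNA of neurons and endocrine cells. In the mammalian brain its best known partner is Cdr1as, a circular RNA of neurons that carries a long array of miR-7 seed matches and binds the miRNA without being cut by it. miR-671-5p pairs almost along its whole length with another site of Cdr1as and directs Argonaute 2 to cut the circle there. A further long noncoding RNA, Cyrano, pairs almost completely with miR-7 and triggers its degradation. Neither Cdr1as nor Cyrano was measured in these libraries of short RNA.

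The mature sequences show why the miRNAs of this circuit fall into separate target families. They are written 5′ to 3′ from RefSeq on GRCm38.p6, with the seed (bases 2 to 8) in capitals.
mmu-miR-7a-5p: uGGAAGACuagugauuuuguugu
mmu-miR-7b-5p: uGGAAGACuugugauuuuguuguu
mmu-miR-671-5p: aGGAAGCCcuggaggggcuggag
mmu-miR-671-3p: uCCGGUUCucagggcuccacc
miR-7a-5p and miR-7b-5p share their seed, and over their 23 shared positions, counted from 1 at the 5′ end, they differ by A10U alone, with 1 extra base at the 3′ end of miR-7b-5p. The way in which the authors' counting divided reads between sequences this close is uncertain. The seeds of the miR-671 arms match neither each other nor the seed of miR-7.

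The 3p arms of the miR-7 hairpins, the passenger strands, are shown because they tell apart the hairpins that give an identical miR-7a-5p.
mmu-miR-7a-1-3p: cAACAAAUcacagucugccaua
mmu-miR-7a-2-3p: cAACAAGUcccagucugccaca
mmu-miR-7b-3p: cAACAAGUcacagccagccuca
From miR-7a-2-3p to miR-7a-1-3p the substitutions are G7A, C10A and C21U.

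miR-7a-5p is made from 2 loci. Mir7-1 gives it at chr13:58392841-58392863 on the minus strand, in an intron of Hnrnpk, an RNA-binding protein gene on the same strand. Mir7-2 gives it at chr7:78888295-78888317 on the plus strand, in no annotated gene other than its own, with Aen 7481 bases away. Mir7b gives miR-7b-5p at chr17:56243017-56243040 on the plus strand, likewise between genes, 13712 bases from Fem1a. Both miR-671 arms come from Mir671, miR-671-5p at chr5:24592132-24592154 and miR-671-3p at chr5:24592171-24592191 on the plus strand. That hairpin lies inside a coding exon of Chpf2, which takes part in chondroitin sulphate synthesis, and opposite an exon of Smarcd3.

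The target sites show the contrast between seed pairing and near-complete pairing. They were read from GRCm38 by matching each miRNA to the annotated transcript, with the match to the seed in capitals.
Cdr1as, site for miR-671-5p: ttccagcatctccagGGCTTCCa
Cdr1as, a site for miR-7a-5p: tccagaaaaatccaaGTCTTCCa
Cyrano, site for miR-7a-5p: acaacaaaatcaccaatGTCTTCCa
The miR-671-5p site lies at chrX:61186029-61186051 on the plus strand, and 19 of the 23 bases of the miRNA can pair with it. At the miR-7 site of Cdr1as shown, chrX:61183571-61183593 on the plus strand, 16 of 23 can pair. At the Cyrano site, chr2:119602137-119602161 on the plus strand, 22 of 23 can pair, with a bulge of 2 bases in the target. The annotated transcript that holds the Cdr1as sequence, C230004F18Rik-206, is 3354 nt long and has 123 matches to GTCTTCC, the complement of the miR-7 seed, and 0 on its other strand. Of 68537 annotated transcripts of at least 1000 nt, 22.7% hold a match, and the most in a transcript of another gene is 11. The complement of the miR-671-5p seed, GGCTTCC, occurs once in the Cdr1as transcript. These matches describe the reference sequence and carry no measurement of binding.

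Library totals ran from 7.77 to 11.1 in units of 1000000 counts, and 56.1% to 67.9% of the counts were on mature and predicted miRNAs. Levels are given as counts per 1000000 counts of the library (CPM), on which 3 counts are 0.271 to 0.386 CPM. No miRNA level was divided by length, since the 4 mature miRNAs are 21 to 24 nt long. Neuronal miRNAs (6 of 6 markers in all 12 libraries) summed to 104453 to 272503 CPM. Markers of other cells were listed in all 12 libraries too, at 4.63 to 195 CPM for microglia and leukocytes, 387 to 3972 for red blood cells, 392 to 1733 for oligodendrocytes, 2972 to 9877 for endothelium, 684 to 2466 for choroid plexus, 167 to 1050 for endocrine and pituitary cells, 27.0 to 87.4 for muscle and 9.04 to 2494 for liver. MC16 stood apart, with the lowest sums for neurons, red blood cells, endothelium, choroid plexus and microglia. By their profiles of 123 miRNA precursor families, without those of mir-7 and mir-671, the libraries were clustered into 3 sets, which are not treatment groups. The number of sets was fixed at 3 and was not found from the data. Set A held SS12, CS8 and CS9, set C held CS10, MC16 and MC17, and set B held the other 6 libraries. Sets A and C hold no MS library and set B holds no CS library, so in part set and treatment cannot be told apart. The labels name no batch.

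All 4 miRNAs had counts in all 12 libraries, and all 4 passed the filter of at least 5 counts in at least 3 libraries. In each of the 12 libraries the order of levels was miR-7a-5p, miR-7b-5p, miR-671-5p, miR-671-3p. miR-7a-5p averaged 2727 CPM and ranked 45 of the 1374 mature miRNAs. miR-7b-5p averaged 1424 CPM and ranked 62. miR-671-5p averaged 49.6 CPM and ranked 223, and miR-671-3p averaged 3.12 CPM and ranked 443. The miR-671-3p level rests on 15 to 48 counts per library, and its counting error is correspondingly wide. In bulk tissue, fewer cells that make a miRNA and less of it per cell cannot be told apart.

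miR-7a-5p was at 2814, 3221 and 4876 CPM in SS12, SS13 and SS14. In CS8, CS9 and CS10 it was at 3736, 2725 and 2463 CPM. In MS3, MS4 and MS23 it was at 2353, 2206 and 2161 CPM, and in MC16, MC17 and MC20 at 1093, 2875 and 2204 CPM. The 3 MS libraries lay close together and below all SS and all CS libraries, while the SS and CS ranges overlapped and MC spanned values below MS and among CS. Of the miRNAs tested below, 4.1% had all MS libraries below all SS libraries in CPM. The share for MS below CS was not counted, and set B, which holds all MS libraries, holds no CS library. The SS mean was 3637 ± 1092 CPM and the CS mean 2975 ± 672 CPM, against 2240 ± 100.1 CPM for MS and 2057 ± 899.9 CPM for MC (SD, n = 3 each). In the order SS, CS, MS and MC, the difference between each group and the next in this order was smaller than the larger of their SDs, apart from CS and MS, whose means differed by more than the SD of either.

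miR-7b-5p followed the same order of means. It was at 1280, 1646 and 2523 CPM in SS12, SS13 and SS14, and at 1759, 1366 and 1349 CPM in CS8, CS9 and CS10. The MS libraries MS3, MS4 and MS23 had 1325, 1144 and 1245 CPM, and MC16, MC17 and MC20 had 746, 1455 and 1256 CPM. The SS range reached down into the MS range, since SS12 lay below MS3, and only the CS and MS ranges were apart. That split also lay between library sets, and its share over all miRNAs was not counted. The SS mean was 1816 ± 639 CPM and the CS mean 1491 ± 232 CPM, against 1238 ± 90.6 CPM for MS and 1152 ± 366 CPM for MC. SS14 had the highest level of both miR-7 guides and MC16 the lowest.

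miR-671-5p, the arm that directs the cut of Cdr1as, ran in the opposite order. The SS libraries SS12, SS13 and SS14 had 175, 154 and 235 counts, which are 21.3, 15.3 and 21.2 CPM. CS8, CS9 and CS10 had 316, 213 and 461 counts, or 37.3, 24.5 and 56.3 CPM. MS3, MS4 and MS23 had 412, 711 and 917 counts, or 37.6, 71.0 and 88.3 CPM. MC16, MC17 and MC20 had 486, 767 and 689 counts, or 62.6, 96.2 and 63.1 CPM. In CPM, all SS libraries lay below all 9 libraries of the other groups, and all CS libraries lay below all MC libraries. The share of miRNAs with SS below all other groups was not counted, and shares for pairs of groups are given below. After scaling with the TMM factors described below, the CS range overlapped with the SS range and with the MC range. Group means of miR-671-5p were 19.3 ± 3.41 CPM (SS), 39.4 ± 16.0 CPM (CS), 65.6 ± 25.8 CPM (MS) and 74.0 ± 19.3 CPM (MC). MS and MC did not differ beyond their spread, and CS and MS ranges overlapped. The MS mean was 3.40 times and the MC mean 3.84 times that of SS.

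miR-671-3p, the other arm of the same hairpin, varied less. It was at 1.82, 2.09 and 3.70 CPM in SS12, SS13 and SS14, at 2.71, 2.76 and 2.57 CPM in CS8, CS9 and CS10, at 3.28, 4.79 and 3.27 CPM in MS3, MS4 and MS23, and at 2.70, 4.01 and 3.66 CPM in MC16, MC17 and MC20. SS overlapped with every other group. The means were 2.54 ± 1.02, 2.68 ± 0.0994, 3.78 ± 0.876 and 3.46 ± 0.678 CPM in SS, CS, MS and MC.

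**Figure D1:**
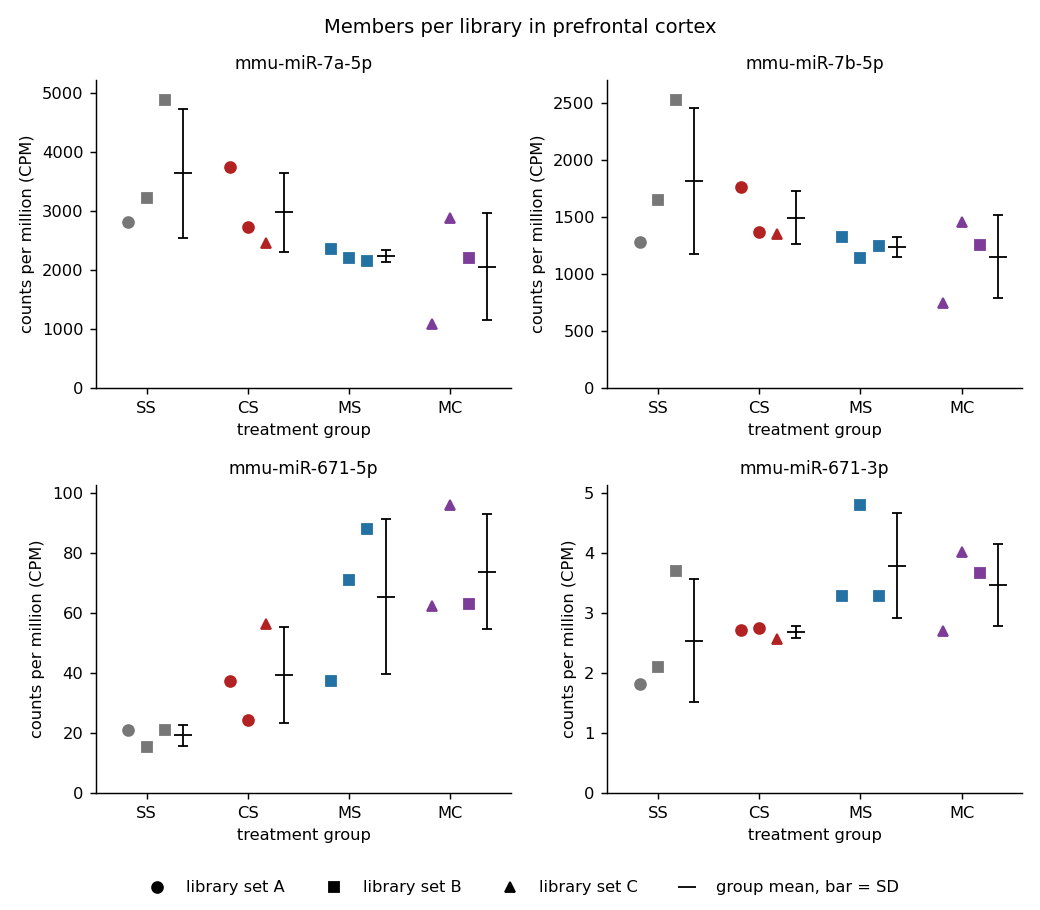
Level in CPM (linear axis from 0) of the 4 miRNAs in each of 12 libraries, by treatment group; symbols give the library set, and the bar beside each group is its mean ± SD (n = 3). The MS libraries of miR-7a-5p sit at 2161 to 2353 CPM, below the SS and CS libraries, and the SS libraries of miR-671-5p sit at 15.3 to 21.3 CPM, below all others. The shares of all miRNAs with MS below both SS and CS, or with SS below all others, were not counted.

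A fit across all miRNAs put these levels beside the rest of the miRNAs. In edgeR's quasi-likelihood test over 780 mature and predicted miRNAs, with TMM factors to scale the libraries, 0 of the 780 miRNAs (0%) passed the adjusted p threshold of 0.05 together with the log2 fold limit of 1 in any of the comparisons CS vs. SS, MS vs. SS, MC vs. MS and MC vs. CS, and so 0 of the 4 members were called. The interaction of cocaine and MET, for which no fold limit was set, also gave 0 calls. At an unadjusted p under 0.05 the counts were 22, 75, 65 and 58 of the 780 in those comparisons and 34 in the interaction. DESeq2 called 7 of 780 (0.897%) in MS vs. SS, 1 of which was miR-671-5p, and 0 in the other comparisons and in the interaction. The comparisons share groups, so their values are not independent of each other.

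In MS vs. SS, the effect of MET without cocaine, the fitted log2 fold change of miR-671-5p was 1.54 ± 0.42 (SE), which was 25th from the highest of the 780. The fitted value of miR-7a-5p was -0.93 ± 0.23, which was 66th from the lowest, and that of miR-7b-5p was -0.77 ± 0.24. miR-671-3p had 0.32 ± 0.31. The median over the 780 miRNAs was -0.03, and the median SE was 0.48. In CPM, miR-671-5p was among the 18.7% of miRNAs whose 3 MS libraries lay above all 3 SS libraries, and miR-7a-5p among the 4.1% that lay below. After TMM scaling these shares were 12.8% and 10.6%, and miR-7b-5p joined the latter. Within set B, which holds SS13, SS14 and all MS libraries, miR-7a-5p was at 3221 and 4876 CPM in SS against 2161 to 2353 in MS, and miR-671-5p at 15.3 and 21.2 against 37.6 to 88.3. After TMM scaling, the log2 ratios of the set B means were -1.08 and 1.61. Summed markers of several other cell types were also higher in all MS than in all SS libraries, with every marker of each list present throughout. Single markers of these lists could go the other way. By group mean, the red blood cell marker miR-486a-5p was at 10.6 CPM in SS and 5.03 CPM in MS. The muscle marker miR-206-3p was at 1.11 and 0.936 CPM. Endothelium markers (2 of 2) summed to 7669 to 9877 CPM in MS and 6580 to 7375 CPM in SS, and red blood cell markers (3 of 3) to 2559 to 3972 and 1496 to 2221 CPM. Microglia and leukocyte markers (3 of 3) summed to 26.9 to 35.8 CPM in MS and 12.3 to 19.8 CPM in SS, muscle markers (3 of 3) to 35.0 to 87.4 and 27.0 to 32.1 CPM, and the liver marker miR-122-5p was at 69.4 to 2494 and 11.2 to 58.8 CPM. Neuronal markers overlapped, at 126421 to 256852 CPM in MS and 180729 to 272503 CPM in SS. The part of these cells in the MS vs. SS values was not tested.

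**Figure D2:**
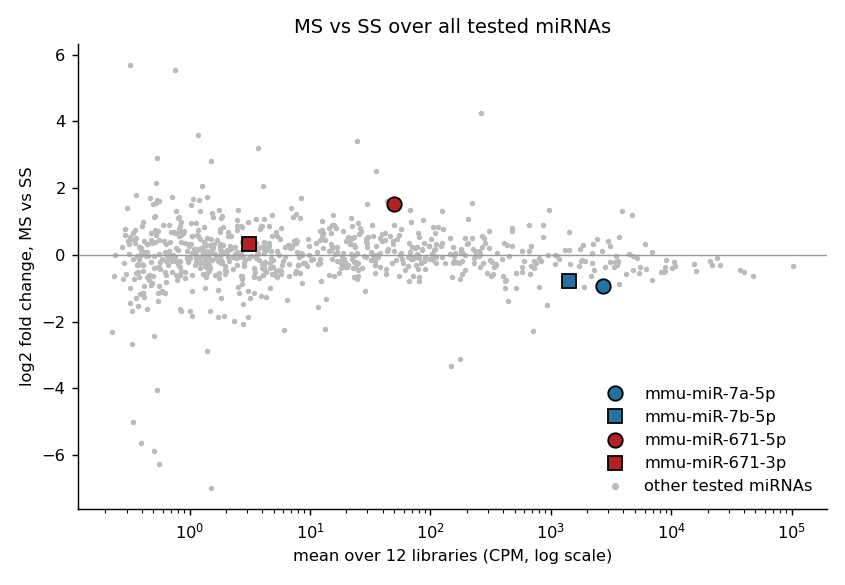
Fitted log2 fold change of MS vs. SS (y axis) against the mean of 12 libraries in CPM (x axis, log scale) for the 780 tested miRNAs, with the 4 members in colour. miR-671-5p lies at 1.54, miR-7a-5p at -0.93 and miR-7b-5p at -0.77, each within the spread of the other miRNAs.

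In CS vs. SS, the effect of cocaine, the fitted log2 fold change was 0.82 ± 0.41 for miR-671-5p, -0.56 ± 0.23 for miR-7a-5p, -0.54 ± 0.24 for miR-7b-5p and -0.16 ± 0.31 for miR-671-3p. In CPM, miR-671-5p was among the 12.3% of miRNAs with all CS libraries above all SS libraries. After TMM scaling its ranges overlapped, and miR-7a-5p was among the 5.38% with all CS libraries below. In CPM, 0 of the 4 members were among the 0.897% with all CS libraries below. Within set A, which holds SS12, CS8 and CS9, the direction of the miR-7 guides depended on the scale. In CPM, miR-7a-5p was at 2814 in SS12 and at a mean of 3231 in CS, and miR-7b-5p at 1280 and 1563. After TMM scaling miR-7a-5p was at 3107 and 2786, and miR-7b-5p at 1413 and 1352. miR-671-5p was at 21.3 CPM in SS12 and at 37.3 and 24.5 CPM in CS8 and CS9. The 2 scalings shifted all miRNAs against each other. With library totals alone the median log2 fold change of the 780 was 0.31 in CS vs. SS and 0.21 in MS vs. SS, against 0.03 and -0.03 with TMM factors. The miR-671-5p value rested in part on CS10, the CS library with the highest miR-671-5p level, and fell to 0.28 without it. With the library set as a covariate the values were 0.41 for miR-671-5p, -0.40 for miR-7a-5p and -0.31 for miR-7b-5p. CS10 was also the library with the highest sum of endocrine and pituitary markers, 1050 CPM over a list of 6, against 168 to 185 in SS. The markers of that list did not differ alike. By group mean, miR-375-3p was at 57.1 CPM in SS and 59.9 CPM in CS. The other markers of the list differed more, as miR-429-3p did at 61.0 and 204 CPM. The part of endocrine and pituitary cells in the result was not tested.

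In MC vs. CS, the effect of MET in mice given cocaine, the fitted log2 fold change was 1.02 ± 0.41 for miR-671-5p, -0.46 ± 0.23 for miR-7a-5p, -0.28 ± 0.24 for miR-7b-5p and 0.48 ± 0.31 for miR-671-3p. miR-671-5p was among the 2.95% of miRNAs with all MC libraries above all CS libraries in CPM, but not among the 4.49% after TMM scaling, where miR-671-3p was. Both miR-7 guides were among the 4.36% with all MC libraries below all CS libraries after TMM scaling, though not among the 2.05% in CPM. In set C, miR-671-5p was at 56.3 CPM in CS10 and at 62.6 and 96.2 CPM in MC16 and MC17. There miR-7a-5p was at 2463 CPM in CS10 and at 1093 and 2875 CPM in MC16 and MC17. For miR-7b-5p the values were 1349, 746 and 1455 CPM. Both guides were thus below CS10 in MC16 alone in CPM, and in MC16 and MC17 after TMM scaling. Without MC16 the values were 0.87 for miR-671-5p and -0.31 for miR-7a-5p, and without CS10 that of miR-671-5p was 1.53. The neuronal markers summed to 104453 to 150430 CPM in MC and to 140797 to 246101 CPM in CS (6 of 6 markers listed throughout). They did not move together. By group mean, miR-124-3p was at 110966 CPM in CS and 39419 CPM in MC. In contrast, miR-138-5p (20676 and 24879 CPM) and miR-9-3p (3702 and 4207 CPM) were higher in MC, and the rest of the list was lower. The part of neuronal cells in the miR-7 values was not tested.

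In MC vs. MS, the effect of cocaine in mice given MET, all 4 values were within 1 SE of 0. They were -0.09 ± 0.23 for miR-7a-5p, -0.04 ± 0.24 for miR-7b-5p, 0.30 ± 0.41 for miR-671-5p and -0.01 ± 0.30 for miR-671-3p. None of the 4 was among the miRNAs whose MC libraries lay wholly above (5.64% in CPM, 4.36% after TMM scaling) or wholly below (2.69% and 4.23%) the MS libraries. Their signs turned under other settings, and that of miR-671-5p was -0.35 with the library set as a covariate. The interaction of cocaine and MET, (MC - MS) - (CS - SS), was 0.46 ± 0.33 for miR-7a-5p, 0.50 ± 0.34 for miR-7b-5p, -0.52 ± 0.58 for miR-671-5p and 0.16 ± 0.44 for miR-671-3p. Without CS10 it was 0.01 for miR-671-5p.

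Against SS, which differs from MC by both treatments, miR-671-5p was among the 9.49% of miRNAs with all MC libraries higher in CPM and the 5.9% after TMM scaling. Both miR-7 guides were among the 8.08% with all MC libraries lower after TMM scaling, but not among the 2.18% in CPM, where MC17 lay above SS12.

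The 3p arms of the miR-7 hairpins are no members and were tested. None of the 3 was called in any comparison. In MS vs. SS the log2 fold changes were -0.24 for miR-7a-1-3p, -0.21 for miR-7a-2-3p and -0.30 for miR-7b-3p, with adjusted p of 0.872, 0.901 and 0.722 in edgeR's quasi-likelihood test. With library totals alone the first 2 of these were 0.01 and 0.02. In CS vs. SS the log2 fold changes were -0.22, -0.22 and -0.51 (adjusted p = 0.994 for each), and the first 2 turned to 0.04 and 0.10 with library totals. In MC vs. CS they were -0.36, -0.53 and 0.10, with adjusted p of 0.647, 0.616 and 0.869. In MC vs. MS they were -0.34, -0.54 and -0.10, with adjusted p of 0.770, 0.644 and 0.913. The interaction had adjusted p of 0.931, 0.875 and 0.810. miR-7a-1-3p had 49.8 CPM in MC16 and 150 to 224 CPM in the other 11 libraries.

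**Figure D3:**
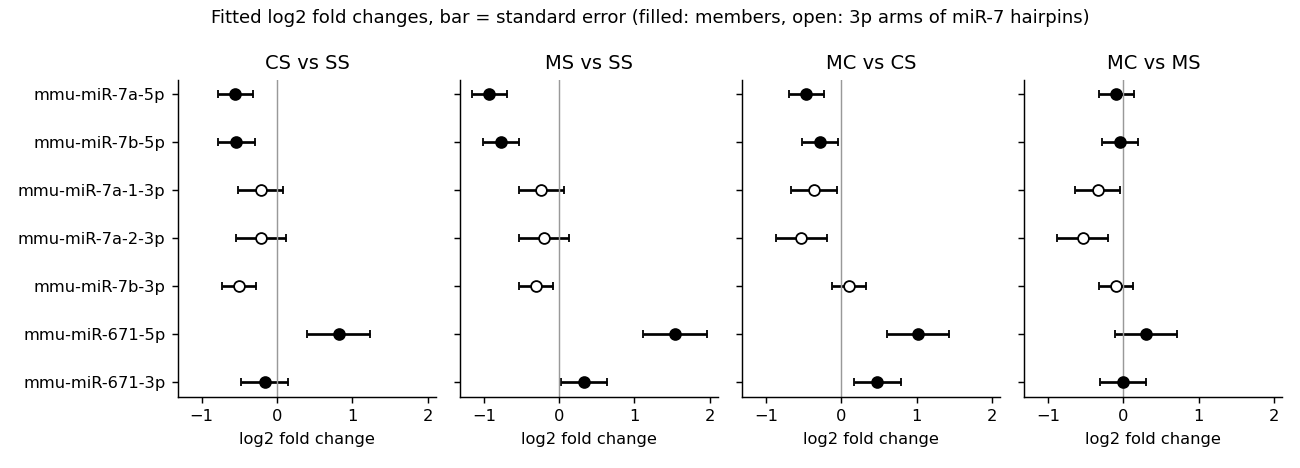
Fitted log2 fold changes (x axis) with their standard errors for the 4 members (filled) and the 3p arms of the miR-7 hairpins (open), 1 panel per comparison. The fitted values of the miR-7 guides are below 0 and those of miR-671-5p above 0 in each panel, and in the last, MC vs. MS, the 4 members are within 1 SE of 0.

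Ratios within a library do not depend on how libraries are scaled. miR-671-5p had 7.56, 4.76 and 4.35 counts per 1000 miR-7a-5p counts in SS12, SS13 and SS14, and 9.98, 8.97 and 22.9 in CS8, CS9 and CS10. The ratio was 16.0, 32.2 and 40.8 in MS3, MS4 and MS23, and 57.2, 33.5 and 28.6 in MC16, MC17 and MC20. All SS libraries were below all CS libraries, the CS and MS ranges overlapped through CS10 and MS3, and all MC libraries were above all CS libraries. Both miRNAs of the ratio were named with results of these libraries known. The share of other miRNA pairs with such ranges was not counted, so the ratio adds no evidence to the levels above. The mean ratio was 5.56 ± 1.74 for SS and 13.9 ± 7.75 for CS, and 29.7 ± 12.6 for MS and 39.8 ± 15.3 for MC.

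The shares of paralogs and arms were taken within each library too. miR-7a-5p made up 65.2% ± 2.45 of the counts of both miR-7 guides over 12 libraries, with 59.4% in MC16 and 63.5% to 68.7% in the others. It was 66.9% ± 1.56 for SS and 66.4% ± 1.70 for CS, and 64.4% ± 1.27 for MS and 63.2% ± 3.51 for MC. The 5p arms made up 94.6% ± 1.13 of all miR-7 counts. Of the 3p arms that come from the 2 miR-7a hairpins, miR-7a-1-3p made up 87.7% ± 3.09, with group means from 87.5% to 88.0%. The miR-671-5p share of both miR-671 arms was 88.4% ± 3.50 for SS and 92.9% ± 2.90 for CS, and 94.0% ± 2.25 for MS and 95.5% ± 0.819 for MC. All SS libraries (85.1% to 92.1%) lay below all MC libraries (94.5% to 96.0%), while SS overlapped with CS (89.9% to 95.6%) and with MS (92.0% to 96.4%). How many other hairpins had such ranges was not counted. The miR-671-5p share was lowest in SS14, at 85.1% (235 of 276 counts, 95% Wilson interval 80.5% to 88.9%), and highest in MS23, at 96.4% (917 of 951 counts, 95% Wilson interval up to 97.4%). These intervals cover the counting error of reads only, and not the spread between libraries.

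**Figure D4:**
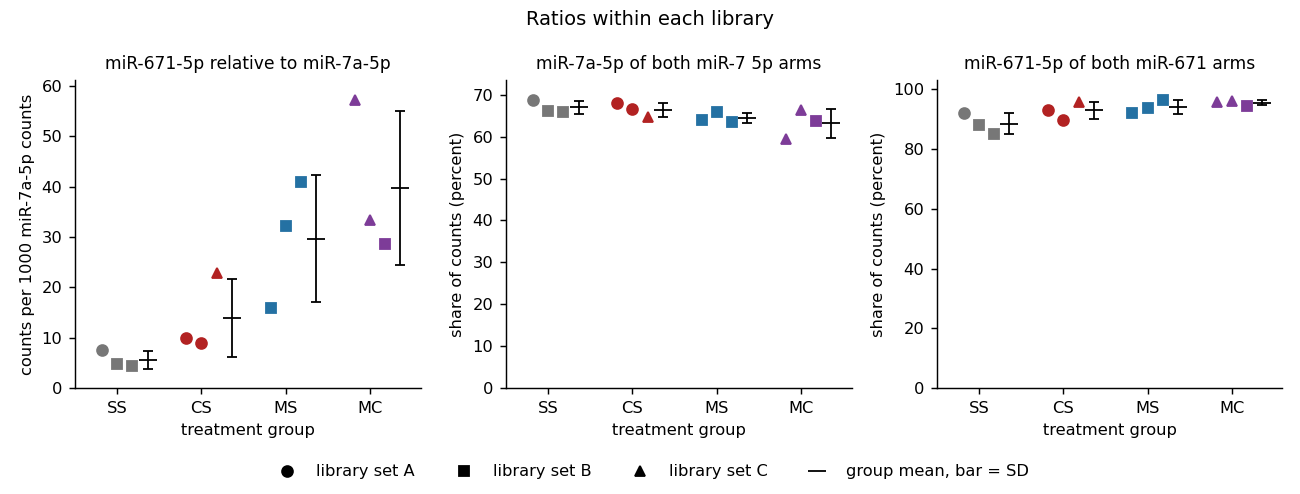
Ratios within each of 12 libraries by treatment group, with the group mean ± SD (n = 3): miR-671-5p counts per 1000 miR-7a-5p counts (left), the share of miR-7a-5p in both miR-7 guides (middle, percent) and the share of miR-671-5p in both miR-671 arms (right, percent). The left ratio runs from 4.35 in SS14 to 57.2 in MC16, while the middle share stays between 59.4% and 68.7%.

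The files also count reads on precursor families, under family names of Rfam, in rows apart from the mature miRNAs. The mir-7 precursor family had 203, 162 and 176 CPM in SS12, SS13 and SS14, and 298, 220 and 105 CPM in CS8, CS9 and CS10. It had 111, 107 and 120 CPM in MS3, MS4 and MS23, and 47.2, 115 and 105 CPM in MC16, MC17 and MC20. All MS and MC libraries were below all SS libraries, and CS10 lay with them rather than with CS8 and CS9. The share of other precursor families with such ranges was not counted, so nothing is read from this. The exact permutation test of the F statistic over all 369600 groupings of the libraries gave p = 0.0721 for a difference among the groups (adjusted p = 0.101 over 2 rows). Without CS10 the exact permutation p was 0.00026 (adjusted 0.00052), and without any other single library it was 0.0782 to 0.148. Leaving out CS10 removes the CS library that lay with MS and MC, so nothing is read from the smaller p. The CS libraries left without CS10, CS8 and CS9, are both in set A, so in part set and treatment cannot be told apart there. With TMM-scaled CPM, a scale chosen after seeing the data, the exact permutation p was 0.0205 (adjusted 0.0409). Within set B the row was at 162 and 176 CPM in SS and at 105 to 120 CPM in MS and MC20. In set C, CS10, MC16 and MC17 were at 105, 47.2 and 115 CPM. There were 2.38 to 5.42 precursor family counts per 100 counts of the miR-7 guides.

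The mir-671 precursor family had few counts. There were 2, 2 and 3 in SS12, SS13 and SS14, 2, 4 and 3 in CS8, CS9 and CS10, 3, 14 and 9 in MS3, MS4 and MS23, and 4, 4 and 8 in MC16, MC17 and MC20. MS4, MS23 and MC20 were the libraries with more than 4 counts. Summed over libraries, the level in MS was 3.47 times that in SS (26 against 7 counts, 95% interval 1.47 to 9.48, counting error only), and that in MC 2.52 times (0.979 to 7.23). The exact permutation test over the 12 libraries gave p = 0.101 (adjusted 0.101). Without MS3 the exact permutation p was 0.000195 (adjusted 0.00039), and without any other single library it was 0.115 to 0.179. MS3 had 3 counts, as SS14 did, so leaving it out removes the MS library that went against a difference. Nothing is read from the smaller p. MS3 was also the library with the highest level of miR-122-5p, the liver marker, at 2494 CPM against 11.2 to 58.8 CPM in SS, and the part of this in the result was not tested.

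**Figure D5:**
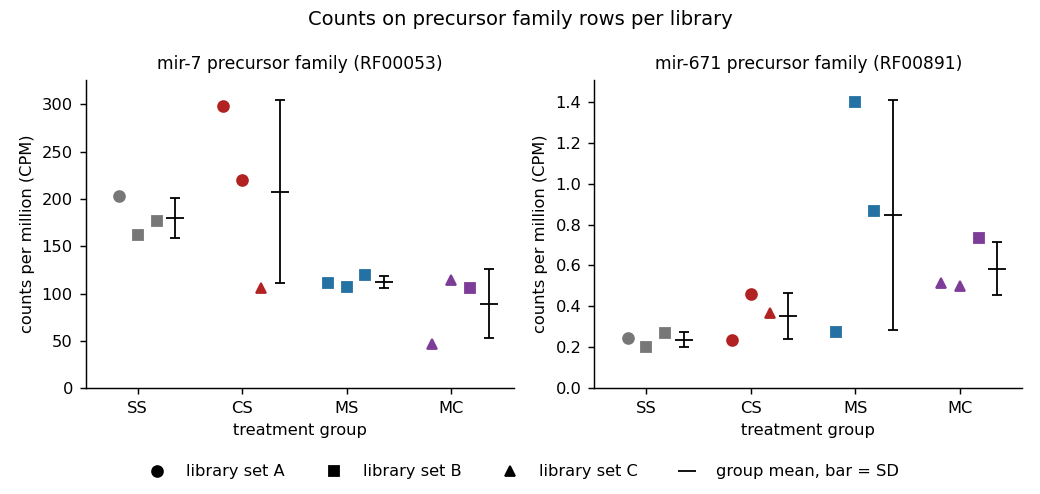
Level in CPM of the mir-7 (left) and mir-671 (right) precursor family rows in each library by treatment group, symbols by library set, with the group mean ± SD (n = 3). For mir-7, SS lies at 162 to 203 CPM and MS at 107 to 120 CPM, and CS10, in set C, lies at 105 CPM apart from the other CS libraries; for mir-671 the counts behind the points are 2 to 14.

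Across the 12 libraries, likeness was described by Pearson's r of log2 TMM-scaled CPM with 344 other miRNAs of at least 10 CPM on average (345 for miR-671-3p). The points share library depth and composition, and the libraries belong to the sets given above. The miRNAs most like miR-7a-5p were miR-7b-5p (r = 0.95), miR-98-5p (0.89) and miR-495-5p (0.87). Those most like miR-7b-5p were miR-7a-5p, miR-98-5p (0.88) and let-7i-5p (0.83), and miR-98 is itself a member of the let-7 family. For miR-671-5p they were miR-370-3p (0.86), miR-874-3p (0.85) and miR-331-3p (0.82). For miR-671-3p they were miR-125b-5p (0.89), miR-129-2-3p (0.86) and miR-3059-5p (0.82), so that none of the 3 named for one miR-671 arm was named for the other.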

How the data were processed

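Small RNA of the PFC was sequenced in 12 libraries of 4 groups. The authors removed low-quality reads, adapters and reads under 16 nt, mapped the rest with AASRA, and aligned what matched no miRNA, rRNA or tRNA to piRBase with Bowtie, allowing 1 mismatch. The submitters' processing notes name Bowtie and mm10, and their versions are not given in the sources used here. The deposited counts are unnormalized read numbers per small RNA, and the deposited TPM is the count scaled to a library total of 1000000, which matched the counts within 0.005 in all 12 libraries. Only the counts were analysed.

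Of 1422 mature and predicted miRNAs, the 780 that reached 5 counts in 3 or more libraries entered the quasi-likelihood F-test of edgeR 4.0.16, run in R 4.3.3 (TMM factors, library size set to the total, 1 coefficient per group, 8 residual degrees of freedom, Benjamini-Hochberg adjustment). A call needed an adjusted p no larger than 0.05 and a log2 fold change of 1 or more in size. SE were derived from the fit, as the absolute log2 fold change divided by the square root of its F statistic. SD of group means are over 3 libraries. Precursor family rows were compared with two-sided exact permutation tests of F. Likeness used a prior count of 0.5. Steps were tested on simulated data. No 2 libraries agreed within sampling noise (smallest chi-square per degree of freedom of 66 pairs, 143.9). Named are the 4 members, the 3p arms of miR-7, the 3 miRNAs most like each member, the marker lists and the precursor rows. The members and lists were chosen with earlier results of these data known.

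Alternatives were DESeq2 1.42.0, other scalings and filters, the library set as a covariate or set B alone, the 6 libraries of a comparison, no fold limit, log2 values for the precursor rows, Spearman's rho, and each library left out in turn. The other steps ran in Python 3.11.15 (numpy 2.4.6, pandas 2.3.3, scipy 1.17.1, matplotlib 3.10.9). Sequences are from RefSeq, and genes and transcripts from GENCODE on GRCm38.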

Additional observations from a re-analysis of the deposited data

How the results depend on the processing

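No paired analysis was possible because the groups share no replicate numbers. Of the members' log2 fold changes under the alternatives, 372 moved by less than the pooled SD between libraries of a group and 12 by more. Many alternatives left out a library of a group outside the comparison and could hardly move the value. For miR-671-5p that SD was 0.52 in log2 CPM. Its change in CS vs. SS from 0.82 to 0.41 with library set as a covariate therefore counted among the 372. The tally is no measure of how stable the values are. With library totals alone, miR-7a-5p in CS vs. SS was -0.29 in place of -0.56. Leaving out each library, miR-671-5p in CS vs. SS ranged from 0.28 to 1.04, miR-671-3p from -0.35 to 0.10, and miR-671-3p in MS vs. SS from 0.15 to 0.60. With library set as a covariate, the values in MC vs. CS were -0.54 for miR-7b-5p and 0.20 for miR-671-3p, and in MC vs. MS that of miR-671-5p was -0.35. The causes were not tested. For MS vs. SS, DESeq2 called 7 of 780 miRNAs (0.897%), and the 6 libraries of the comparison alone gave 3 of 714 (0.42%). Leaving out each library gave 0 to 5 calls, with 5 of 773 (0.647%) without MC16. miR-671-5p was called by DESeq2 and the other members by none of these. In the other comparisons 0 were called under every alternative run. The exact permutation p of the precursor rows ranged from 0.00026 to 0.148 for mir-7 and from 0.000195 to 0.179 for mir-671 with each library left out, and was 0.0205 for mir-7 with TMM scaling, chosen after seeing the data. The lowest p came from leaving out CS10 for mir-7 and MS3 for mir-671, the libraries that lay apart from the rest of their group. As log2 ratios of group means, miR-7a-5p in CS relative to SS was -0.56 and miR-671-3p in MS relative to SS was 0.33 with TMM scaling, against -0.29 and 0.58 in CPM. With Spearman's rho, 1 of the 3 most similar miRNAs was kept for miR-7a-5p, 1 for miR-7b-5p and 1 for miR-671-5p, and 3 for miR-671-3p. With 3 libraries a group and 15 to 48 counts, the miR-671-3p level cannot show small differences, and the mir-671 precursor row rests on 2 to 14 counts per library.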
